A study of Mus musculus with 5 samples.

Results

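The interferon regulatory factors (IRFs) are a family of transcription factors that share a DNA-binding domain rich in tryptophan. The 8 genes Irf1, Irf2, Irf3, Irf4, Irf5, Irf7, Irf8 and Irf9 were taken by symbol from a table of 22815 gene symbols, and all 8 were found in it. Their RNA was measured in 5 libraries of mouse peritoneal lavage cells made by Smart-seq2, which amplifies full-length cDNA from small amounts of polyadenylated RNA. The libraries came from mice described as Irf8-deficient and given pristane (labelled Irf8KO, n = 2), wild-type (WT) C57BL/6 mice given pristane (n = 2) and WT C57BL/6 mice given PBS, the buffer that serves as vehicle (n = 1). All animals were 8 weeks old. Pristane is a mineral oil hydrocarbon that sets off chronic sterile inflammation in the mouse peritoneum and lung bleeding in C57BL/6 mice, and the series concerns inflammatory monocytes in that lung disease. The sources used here do not give the Irf8 allele, the strain background of the Irf8-deficient mice, the time after injection or the number of animals behind each library. No Irf8-deficient mice given PBS were among the libraries, so an effect of genotype without pristane could not be set beside the others. The p-values measure only the spread between these libraries, which may be technical.

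Most cells hold Irf3 protein in an inactive form, and sensors of foreign or misplaced nucleic acid lead to its phosphorylation by the kinases Tbk1 and Ikbke, after which it enters the nucleus and helps to switch on the interferon beta gene. Secreted interferon then acts through its receptor on Irf9 and its partners, which turn on the Irf7 gene, and newly made Irf7 widens production to the interferon alpha genes. Irf1 is itself induced by interferon gamma, and Irf2 competes with it for the same DNA element. Irf5 acts below Myd88 in macrophages, whereas Irf8 and Irf4 bind together with the Ets factor Spi1 and guide monocytes, dendritic cells and B cells. Mice that lack Irf8 are known to have few monocytes and an excess of granulocytes.

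Because RNA of these genes differed most at Irf7, and because Irf1, Irf2 and Irf8 are the members with a searched element, the 250 bases before a transcription start are shown for these 4 genes (RefSeq, mouse build GRCm38.p6). Irf7 lies on the minus strand at chr7:141266425-141266674, Irf1 on the plus strand at chr11:53769764-53770013, Irf2 on the plus strand at chr8:46739495-46739744 and Irf8 on the plus strand at chr8:120736108-120736357. Each is written 5′ to 3′ on the strand of its gene, with matches to a searched element in capitals.
Irf7: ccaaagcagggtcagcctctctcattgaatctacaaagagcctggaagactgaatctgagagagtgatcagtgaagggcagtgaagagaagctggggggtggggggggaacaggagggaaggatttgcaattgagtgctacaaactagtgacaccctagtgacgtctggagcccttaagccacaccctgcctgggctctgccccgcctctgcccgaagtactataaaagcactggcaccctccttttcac
Irf1: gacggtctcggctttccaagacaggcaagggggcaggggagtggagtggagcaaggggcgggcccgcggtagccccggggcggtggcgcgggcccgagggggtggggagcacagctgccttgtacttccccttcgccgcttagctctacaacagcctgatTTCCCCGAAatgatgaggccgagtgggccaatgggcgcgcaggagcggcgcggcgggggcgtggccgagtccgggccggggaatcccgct
Irf2: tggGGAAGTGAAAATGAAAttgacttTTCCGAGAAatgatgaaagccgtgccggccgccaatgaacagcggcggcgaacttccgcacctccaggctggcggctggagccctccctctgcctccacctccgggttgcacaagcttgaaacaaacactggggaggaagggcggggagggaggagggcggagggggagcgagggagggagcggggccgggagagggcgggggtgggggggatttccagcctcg
Irf8: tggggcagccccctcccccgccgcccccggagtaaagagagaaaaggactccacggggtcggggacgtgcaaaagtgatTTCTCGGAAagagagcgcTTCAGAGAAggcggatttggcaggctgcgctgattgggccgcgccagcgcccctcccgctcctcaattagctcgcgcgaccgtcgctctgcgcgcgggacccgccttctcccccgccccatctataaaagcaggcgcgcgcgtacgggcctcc
The elements were searched on both strands. The core of the interferon-stimulated response element, bound by IRFs, was taken as GAAA and GAAA with any 2 bases between them. The gamma-activated site, an element of interferon gamma responses, was taken as TTC and GAA with any 3 bases between them. The Ets-IRF composite element, bound by Irf8 or Irf4 with Spi1, was taken as GGAA and GAAA with any 2 bases between them. All 8 members matched the RefSeq table, with 11 windows between them. Irf1 held the gamma-activated site TTCCCCGAA at 90 to 82 bases before its start. Irf8 held 2 such sites, TTCTCGGAA at 171 to 163 bases and TTCAGAGAA at 153 to 145 bases before its start. The same kind of site, TTCCGAGAA, stood in Irf2 at 224 to 216 bases before the start, beside GAAAATGAAA at 241 to 232 bases and the overlapping GGAAGTGAAA at 247 to 238 bases. No match was found in the windows of Irf3, Irf4, Irf5, Irf7 and Irf9. Of 27025 genes with a window, 3.46% held the response element core, 8.13% the gamma-activated site and 2.68% the composite element, so 3 of 8 members with a gamma-activated site and 1 of 8 with each of the others are given as descriptions of these windows.

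Values were FPKM, fragments scaled to transcript length and to sequencing depth, so that levels of different genes can be compared per length within a library. Depth was read from the smallest steps of the values and came to about 3281000 to 5091000 fragments in the libraries labelled Irf8KO, 2852000 to 4029000 after pristane in WT and 2313000 after PBS, which is shallow. The Irf8KO label was not borne out by Irf8 RNA: Irf8 had 120.5 and 59.4 FPKM in libraries labelled Irf8KO, against 63.3 and 48.7 FPKM in WT pristane and 32.4 FPKM in WT PBS. A value per gene cannot tell a whole transcript from one that lacks a deleted part, so every direction drawn from these libraries rests on their label. The libraries also differed in genes that mark sex: Eif2s3y, on the Y chromosome, had 23.2 and 25.6 FPKM in libraries labelled Irf8KO, 12.9 and 0 FPKM in WT pristane and 0 FPKM in WT PBS, and Xist, made from the inactive X chromosome, had 0.0148 and 0.0145, 0 and 8.81, and 43.5 FPKM in the same order. The second WT pristane library therefore stood apart from the first in these genes, and the part of sex in the results below was not tested. Marker lists for large peritoneal macrophages, monocytes, B cells and conventional dendritic cells had no gene listed at 0 throughout a group. This cannot show a peritoneal origin, since a gene need only be above 0. In bulk RNA, fewer cells of a type and less RNA per cell cannot be told apart.

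Irf7, the inducible factor that amplifies interferon production, dominated the family after pristane in WT cells. It had 11.4 and 15.7 FPKM in libraries labelled Irf8KO, 393.4 and 482.1 FPKM in WT pristane and 6.55 FPKM in WT PBS. Both WT pristane libraries stood far above the other 3, which lay within a few-fold of each other. Irf9, which carries the interferon receptor signal to DNA, had 7.35 and 10.8 FPKM in libraries labelled Irf8KO, 33.9 and 31.5 FPKM in WT pristane and 16.9 FPKM in WT PBS. Its 3 groups did not overlap, and the lowest values were those of the libraries labelled Irf8KO, below PBS. Irf3, the factor present before stimulation, had 8.56 and 9.07, 9.72 and 5.82, and 7.81 FPKM in the same order, and its groups could not be set in order because the WT pristane pair spanned all other libraries.

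Irf1, which drives antigen presentation and guanylate-binding protein genes, had 41.4 and 21.7 FPKM in libraries labelled Irf8KO, 58.0 and 80.0 FPKM in WT pristane and 29.8 FPKM in WT PBS. The WT pristane pair was above the rest, and the PBS value lay between the values of the libraries labelled Irf8KO. Irf2, its antagonist at shared sites, varied little, with 24.9 and 19.0 FPKM in libraries labelled Irf8KO, 24.1 and 24.7 FPKM in WT pristane and 33.4 FPKM in WT PBS. The PBS library had the highest Irf2 value, while the pristane groups overlapped. Irf5, the mediator of Tnf and Il6 induction below Toll-like receptors, had 47.2 and 24.6 FPKM in libraries labelled Irf8KO, 105.7 and 132.4 FPKM in WT pristane and 47.4 FPKM in WT PBS. Like Irf1, it was highest in both WT pristane libraries, and the first library labelled Irf8KO nearly equalled PBS. In a GENCODE annotation, 14.1% of the exon bases of Irf5 are shared with the opposite-strand gene Tnpo3, which had between 6.58 and 9.64 FPKM in every library, whereas shared bases made up at most 3.40% of any other member.

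Irf8, the factor of monocyte and dendritic cell development, had its highest single value, 120.5 FPKM, in the first library labelled Irf8KO. The second one, at 59.4 FPKM, lay between the WT pristane libraries at 63.3 and 48.7 FPKM, and all 4 pristane libraries were above the 32.4 FPKM of WT PBS. Irf4, its closest relative, which acts in B cells, plasma cells and alternatively activated macrophages, was distributed in the opposite way. It had 2.31 and 1.70 FPKM with the Irf8KO label, 1.62 and 0.850 FPKM in WT pristane and 18.1 FPKM in WT PBS. All 4 pristane libraries were far below PBS, and by the longest coding transcript the values stood for at most 56 and 27 fragments in the libraries labelled Irf8KO and 31 and 12 in WT pristane.

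**Figure D1:**
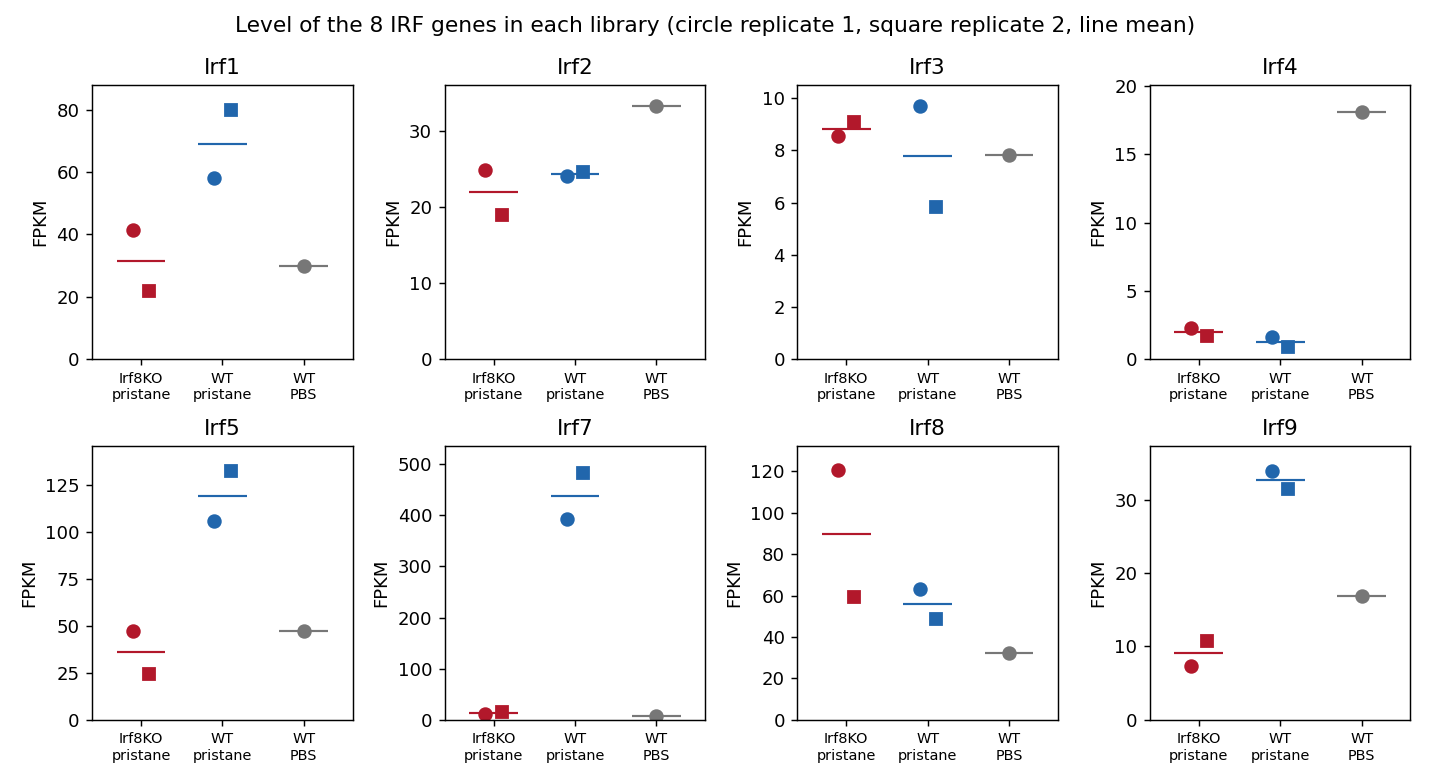
FPKM of each of the 8 IRF genes by group (Irf8KO pristane, WT pristane, WT PBS), on a linear axis from 0 with its own scale per gene; each point is 1 library and the line is the group mean. Irf7 reaches 393.4 and 482.1 FPKM in WT pristane and stays at or below 15.7 FPKM elsewhere, and Irf4 is high only in the PBS library at 18.1 FPKM.

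Between libraries labelled Irf8KO and WT after pristane, Irf7 differed by the most. Its log2 change was −4.92 ± 0.23 (SE, 2 libraries against 2), a mean FPKM 32.3-fold lower in the libraries labelled Irf8KO, with a 95% interval of −5.57 to −4.28. By p-value it ranked 4 of 11117 genes tested, and its adjusted p of 0.0541 (limma on log2(FPKM + 1), Benjamini-Hochberg over all genes tested) missed the threshold of 0.05. Irf9 had a log2 change of −1.76 ± 0.24 and an adjusted p of 0.0863, with a mean 3.61-fold lower. Irf5 had −1.76 ± 0.37 with an adjusted p of 0.139, and Irf1 had −1.16 ± 0.39 with an adjusted p of 0.221. For Irf8 the log2 change was 0.60 ± 0.41 and its interval of −0.53 to 1.73 did not reach a loss of more than 0.53.

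Of the 8 members, 0 passed the threshold, against a background of 0.027% of all genes tested, and 4 passed at an unadjusted p under 0.05 (Irf1, Irf5, Irf7 and Irf9, all lower), against 10.1%. The libraries of the groups did not overlap for those same 4 genes, lower in the libraries labelled Irf8KO, against 27.1% of all genes in that direction. They also did not overlap for Irf4, higher in the libraries labelled Irf8KO, against 26.1%, though its nearest values, 1.70 and 1.62 FPKM, rest on few fragments. Irf2, Irf3 and Irf8 overlapped. The call depended on the filter on low values: 86 of the genes tested were listed at 0 in all 4 pristane libraries and 686 stayed under 1 FPKM there. When genes were instead required to reach 1 FPKM in a pristane library, an alternative chosen after seeing the data, 3 members passed as lower in the libraries labelled Irf8KO, against 2.19% of 10431 genes in that direction: Irf7 (adjusted p = 0.00202), Irf9 (0.0215) and Irf5 (0.0485). Leaving out any single pristane library kept the log2 change of Irf7 between −5.14 and −4.71 and that of Irf9 between −2.01 and −1.52.

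After pristane in WT, Irf7 rose and Irf4 fell relative to PBS. Irf7 had a log2 change of 5.85 ± 0.28 and a mean FPKM 66.9-fold higher (adjusted p = 0.0215, limma, 2 libraries against 1). Irf4 had a log2 change of −3.12 ± 0.34 and a mean FPKM 14.7-fold lower (adjusted p = 0.0292). Thus 1 of 8 members passed as higher, against 5.18% of all genes tested, and 1 of 8 as lower, against 5.46%. The other 6 did not pass: the log2 change was 1.30 ± 0.45 for Irf5 (adjusted p = 0.140), 1.17 ± 0.47 for Irf1 (0.180), 0.91 ± 0.29 for Irf9 (0.119), 0.76 ± 0.50 for Irf8 (0.344), −0.04 ± 0.36 for Irf3 (0.950) and −0.44 ± 0.24 for Irf2 (0.281). Without overlap, 5 members were higher in WT pristane (Irf1, Irf5, Irf7, Irf8 and Irf9), against 37.3% of all genes, and 2 were lower (Irf2 and Irf4), against 44.5%. With 1 PBS library the fit assumes that this library varies as the pristane ones do, and with any 1 pristane library left out no member passed.

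The libraries labelled Irf8KO were set against the same WT PBS library, so this comparison and the WT one share that control. Genotype and pristane both differ in it and cannot be told apart. Irf4 again fell, with a log2 change of −2.68 ± 0.34 and a mean 9.03-fold lower (adjusted p = 0.0371), and it was the 1 member of 8 that passed as lower, against 4.72% of all genes tested. No member passed as higher, against 3.81%, and at an unadjusted p under 0.05 Irf7 was higher, against 15.6%, and Irf4 and Irf9 were lower, against 18.1%. Irf7 had a log2 change of 0.93 ± 0.28 (adjusted p = 0.114), Irf8 had 1.36 ± 0.50 (0.152) and Irf9 had −0.85 ± 0.29 (0.135). For Irf5 it was −0.46 ± 0.45 (0.513), for Irf2 −0.59 ± 0.24 (0.179), for Irf3 0.16 ± 0.36 (0.785) and for Irf1 0.01 ± 0.47 (0.996). Irf3, Irf7 and Irf8 were above PBS in both libraries, against 40.7% of all genes, and Irf2, Irf4, Irf5 and Irf9 below it in both, against 46%. The call of Irf4 was lost with a pseudocount of 0.1 (adjusted p = 0.0613) and with any 1 pristane library left out.

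**Figure D2:**
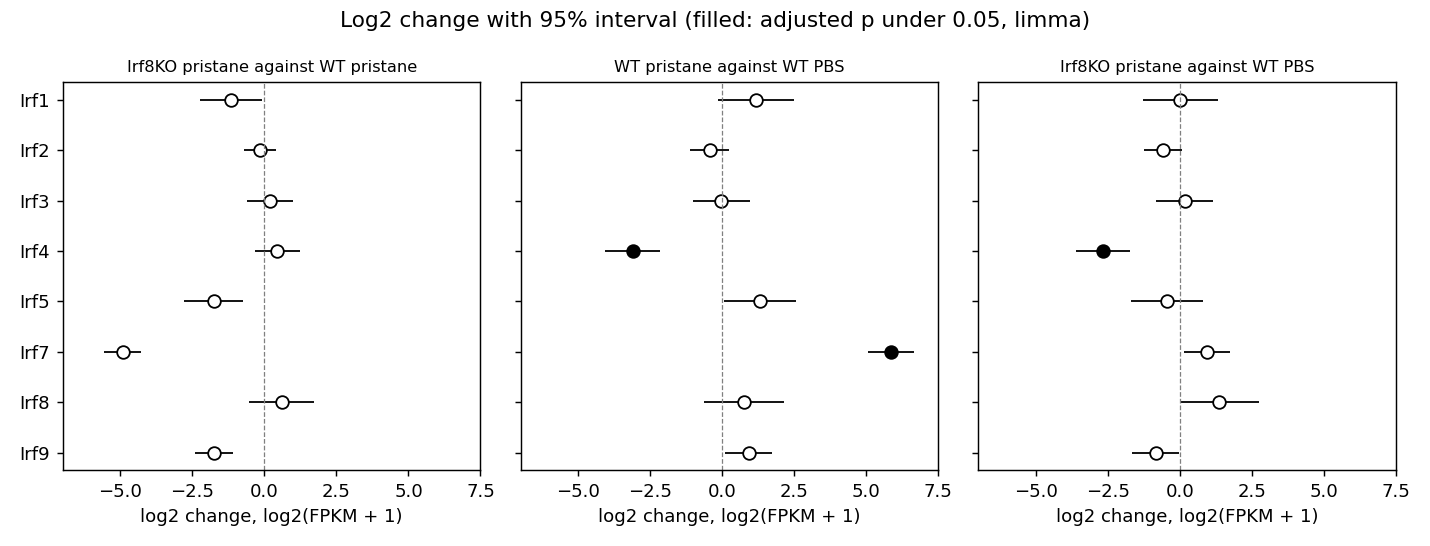
Log2 change of each IRF gene on the log2(FPKM + 1) scale in the 3 comparisons, with 95% intervals from limma; filled points have an adjusted p under 0.05. Irf7 lies at −4.92 in Irf8KO against WT pristane and at 5.85 in WT pristane against PBS, and Irf4 is the gene filled in both comparisons with PBS.

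The make-up of the IRF pool differed between the groups, as did its size. Summed FPKM of the 8 genes was 263.7 and 162.0 in the libraries labelled Irf8KO, 689.8 and 806.0 in WT pristane and 192.3 in WT PBS. Without Irf7 the sums were 252.3 and 146.3, 296.4 and 323.9, and 185.7 FPKM in the same order, so WT pristane libraries stood above the others with and without it. Irf7 made up 4.32% and 9.68% of the pool in the libraries labelled Irf8KO, 57.0% and 59.8% in WT pristane and 3.41% in WT PBS. Irf8 made up 45.7% and 36.7% in the libraries labelled Irf8KO, 9.18% and 6.04% in WT pristane and 16.8% in WT PBS. Each group thus had another leading gene, Irf8 in the libraries labelled Irf8KO, Irf7 in WT pristane and Irf5 with 24.7% in WT PBS. With Irf8 left out of the pool, since its RNA may come from a transcript that lacks a deleted part, Irf7 made up 7.96% and 15.3% in the libraries labelled Irf8KO, 62.8% and 63.7% in WT pristane and 4.09% in WT PBS. Irf5 then led in the libraries labelled Irf8KO with 33.0% and 24.0%, as it did in WT PBS with 29.7%. Shares of one gene depend on the others, and Irf8 had a smaller share in WT pristane than after PBS although its FPKM there was higher.

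Within each group the members could be put in order of level. In the libraries labelled Irf8KO, Irf8 came first, Irf5, Irf1 and Irf2 followed with overlapping values, Irf7 was in the fifth place, Irf9 and Irf3 overlapped, and Irf4 was last. In WT pristane, Irf7 came first and Irf5 next, Irf1 and Irf8 overlapped, and Irf9, Irf2, Irf3 and Irf4 followed in that order without overlap. In the single PBS library the order was Irf5, Irf2, Irf8, Irf1, Irf4, Irf9, Irf3 and Irf7, with no spread to judge neighbours by. Irf5 held the second place in all 4 pristane libraries and the first after PBS.

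**Figure D3:**
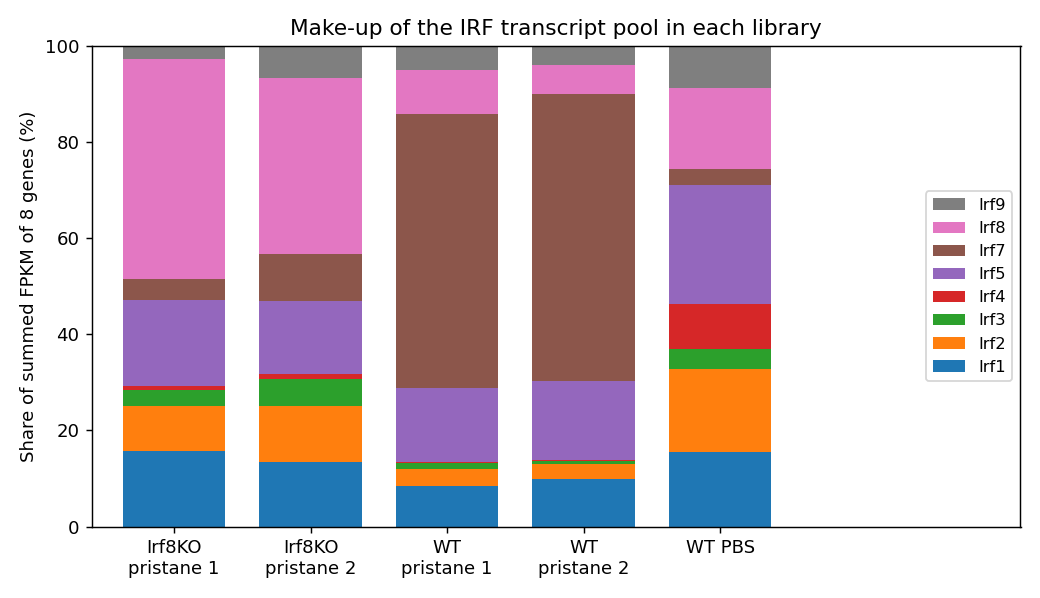
Share of each IRF gene in the summed FPKM of the 8 genes, in percent, with 1 stacked bar per library from Irf8KO pristane on the left to WT PBS on the right. Irf7 takes 57.0% and 59.8% of the bar in WT pristane, and Irf8 takes 45.7% and 36.7% in the libraries labelled Irf8KO.

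Members were also set against each other within a library, as differences of log2(FPKM + 1), called log2 ratios here; the added 1 pulls the ratios of low genes toward 0. The log2 ratio of Irf7 to Irf3, the inducible to the constitutive arm of the interferon response, was 0.37 and 0.73 in the libraries labelled Irf8KO, 5.20 and 6.15 in WT pristane and −0.22 in WT PBS. For Irf7 to Irf5 it was −1.96 and −0.62, 1.89 and 1.86, and −2.68 in the same order. Both ratios were above those of all other libraries in the WT pristane pair. The log2 ratio of Irf9 to Irf3 was −0.20 and 0.23 in the libraries labelled Irf8KO, 1.70 and 2.25 in WT pristane and 1.02 in WT PBS, again without overlap between groups. That of Irf1 to its antagonist Irf2 was 0.71 and 0.18, 1.23 and 1.66, and −0.16, the lowest value being that of PBS. The log2 ratio of Irf8 to Irf4 was 5.20 and 4.48 in the libraries labelled Irf8KO, 4.62 and 4.75 in WT pristane and 0.80 in WT PBS. As plain FPKM ratios, which need no added 1 and do not depend on scaling between libraries, Irf8 to Irf4 was 52.2 and 35.0 in the libraries labelled Irf8KO, 39.1 and 57.3 in WT pristane and 1.79 in WT PBS. On both scales this ratio separated pristane from PBS, and the genotypes overlapped. With 2 libraries against 2, an exact permutation test cannot go below p = 0.333, so the ratios are given without a test.

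**Figure D4:**
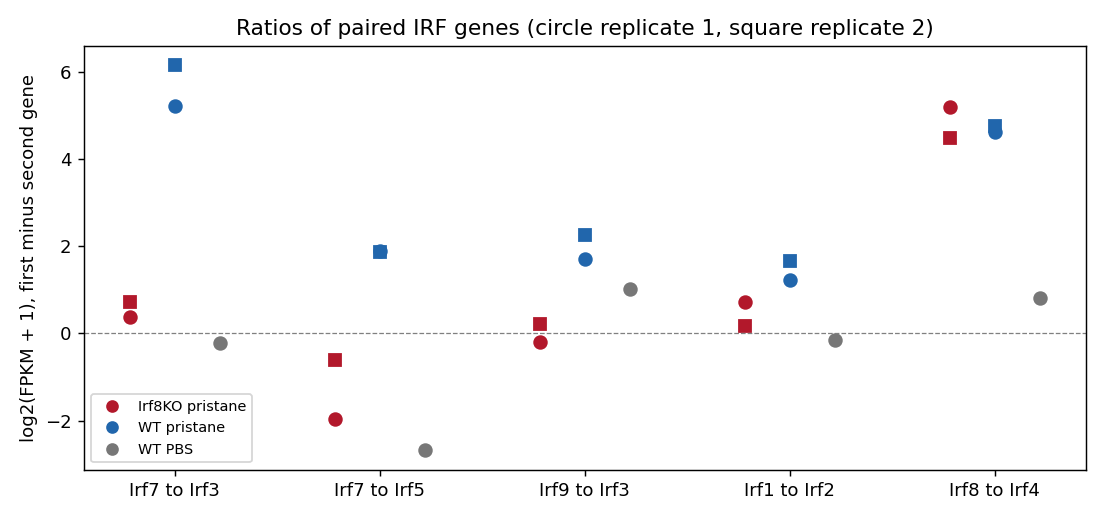
Log2 ratio, the difference of log2(FPKM + 1), for 5 pairs of IRF genes within each library; circles and squares are replicates 1 and 2 of Irf8KO pristane (red) and WT pristane (blue), and grey is WT PBS. The ratios of Irf7 to Irf3 and to Irf5 are highest in WT pristane, and Irf8 to Irf4 is 0.80 after PBS and at least 4.48 in the 4 pristane libraries.

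Across the 5 libraries Irf7 varied 73.6-fold between its highest and lowest value, Irf4 21.3-fold, Irf5 5.37-fold, Irf9 4.61-fold, Irf8 3.72-fold, Irf1 3.69-fold, Irf2 1.75-fold and Irf3 1.67-fold. Likeness of pattern was measured as the root mean square difference of centred log2(FPKM + 1) values over the 5 libraries, where 0 would be the same pattern. Among members, Irf1 and Irf5 were closest at 0.283, Irf2 and Irf3 followed at 0.379 and Irf5 and Irf9 at 0.490, while Irf4 and Irf7 were farthest apart at 3.49. Of 4639 other genes whose log2 values averaged 3 or more, those nearest to Irf7 were Oasl1 (0.403), an oligoadenylate synthetase-like protein, Usp18 (0.502), a brake on interferon receptor signalling, and Rsad2 (0.523), an antiviral enzyme. Nearest to Irf9 were Adar (0.170), an RNA-editing enzyme, Ddx58 (0.180), a sensor of viral RNA, and the nucleoside transporter Slc29a3 (0.221). Nearest to Irf4 were the forkhead factor Foxp1 (0.0905), Pkig (0.198) and Nap1l1 (0.244). Irf5 was most like Tmsb10 (0.126), Gpr65 (0.180) and Ogfr (0.188), Irf8 most like Dhrs4 (0.112), Pilra (0.141) and Hiatl1 (0.202), and Irf1 most like C1galt1c1 (0.116), Rrbp1 (0.163) and Mapk6 (0.166). For the flat patterns of Irf2 and Irf3 the nearest genes were Ctbp1 (0.0564) and Fam86 (0.0410).

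Interferon-stimulated genes known as targets of Irf9 had lower values throughout in the libraries labelled Irf8KO, set against WT pristane. Of 25 such genes, 3 fell, against 0.027% of all genes tested, and 0 rose. At an unadjusted p under 0.05, 24 were lower, against 10.1% of all genes. These 3, Ifit1, Rtp4 and Rsad2, were all the genes in the table that passed this comparison. Ifit1, which binds foreign RNA, had 0.153 and 0.221 FPKM in libraries labelled Irf8KO, 50.1 and 49.8 FPKM in WT pristane and 1.86 FPKM in WT PBS (log2 change −5.42 ± 0.19, adjusted p = 0.0368 in limma for Irf8KO against WT pristane). Rsad2 had 1.48 and 1.33, 130 and 169, and 1.47 FPKM in the same order. The list's median log2 change was −3.46, beside −0.0018 over all genes tested, and 25 of 25 members were lower without overlap, against 27.1% of all genes. With the filter set in the pristane libraries, chosen after seeing the data, 23 of 25 fell, against 2.19% of all genes. In WT pristane against PBS, 20 of the 25 rose, against 5.18% of all genes, and 0 fell, with a median of 2.96 beside −0.07 over all genes. In the libraries labelled Irf8KO against PBS, 0 rose, against 3.81% of all genes, and 1 fell, Rtp4, against 4.72%. The median there was −0.54 beside −0.05 over all genes.

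Targets of Irf1 and of interferon gamma had a smaller median change. Of 15 tested, 0 passed between the libraries labelled Irf8KO and WT after pristane, and the median log2 change was −1.68. At an unadjusted p under 0.05, 12 were lower, against 10.1% of all genes. Under the added filter 8 fell, against 2.19%. Psmb8, an immunoproteasome subunit, had 113 and 102 FPKM in libraries labelled Irf8KO, 355 and 337 FPKM in WT pristane and 267 FPKM in WT PBS (adjusted p = 0.0562 for the first against the second). Against PBS, 1 of the 15 rose in WT pristane, close to the 5.18% of all genes that did. This was the immunity-related GTPase Ifi47, with a log2 change of 2.51 ± 0.24. In the libraries labelled Irf8KO 4 fell against PBS, beside 4.72% of all genes, among them Gbp5 at −2.62 ± 0.26 and the peptide transporter Tap1 at −1.81 ± 0.22. The list's values for Psmb8 and Tap1 were thus below PBS in the libraries labelled Irf8KO and above it in WT pristane.

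Targets and partners of the other members gave few calls. Of 6 Irf5 cytokine targets, 0 passed between the pristane groups, and the cytokine gene Tnf had 286 and 122 FPKM in libraries labelled Irf8KO, 737 and 671 FPKM in WT pristane and 90.2 FPKM in WT PBS. Il6 rose in the libraries labelled Irf8KO against PBS, with 101 and 76.7 FPKM against 18.1 FPKM, and had 26.0 and 26.3 FPKM in WT pristane. It was the 1 of 6 that rose there, beside 3.81% of all genes. Of 10 Irf8 targets of myeloid cells, 0 passed between the pristane groups. In WT pristane against PBS 3 rose, beside 5.18% of all genes, among them Ctsc, a lysosomal protease, and Fcgr1, an antibody receptor. Of 7 Irf4 targets, 1 rose against WT PBS in each pristane group, beside 5.18% of all genes in WT pristane and 3.81% in the libraries labelled Irf8KO. Arg1, the arginase of alternatively activated macrophages, had 5918 and 6134 FPKM in libraries labelled Irf8KO, 3858 and 8864 FPKM in WT pristane and 58.7 FPKM in WT PBS. Arg1 thus rose where Irf4 itself fell, but most of the list did not rise with it. Against PBS the log2 change was below 0 for 4 of the 7 in WT pristane and for 6 in the libraries labelled Irf8KO. The list medians were −0.06 and −1.37, beside −0.07 and −0.05 over all genes. Retnla had 18.2 and 7.47 FPKM in libraries labelled Irf8KO, 16.7 and 110 FPKM in WT pristane and 152.6 FPKM in WT PBS.

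Among 16 partners and co-regulators, 0 passed between the pristane groups, with 3 lower under the added filter, against 2.19% of all genes. Stat2, which pairs with Irf9, had 0.737 and 1.07 FPKM in libraries labelled Irf8KO, 10.1 and 10.4 FPKM in WT pristane and 1.82 FPKM in WT PBS. It was highest in WT pristane and below PBS in the libraries labelled Irf8KO, the order seen for Irf9. Spi1, the Ets partner of Irf8 and Irf4, had 242 and 201 FPKM in libraries labelled Irf8KO, 339 and 216 FPKM in WT pristane and 63.6 FPKM in WT PBS. Batf3, which works with Irf8 in cross-presenting dendritic cells, had 0.469 and 0 FPKM in libraries labelled Irf8KO, 4.98 and 4.12 FPKM in WT pristane and 5.17 FPKM in WT PBS. In WT pristane against PBS, 2 of the 16 rose (Stat2 and Spi1), beside 5.18% of all genes, and 1 fell (Ikzf3), beside 5.46%. In the libraries labelled Irf8KO against PBS, 2 fell (Ikzf3 and Batf3), beside 4.72%, and 0 rose, beside 3.81%.

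Of 17 adaptors and kinases that act upstream of IRFs, 0 passed between the pristane groups and the median log2 change was −0.33. Myd88, the Toll-like receptor adaptor above Irf5 and Irf7, had 69.7 and 56.7 FPKM in libraries labelled Irf8KO, 92.2 and 89.8 FPKM in WT pristane and 25.1 FPKM in WT PBS. It passed as higher than the single WT PBS library in both pristane groups. Ikbke, a kinase of Irf3 and Irf7, rose in WT pristane against PBS (log2 change 2.01 ± 0.35, adjusted p = 0.0471 in limma). Thus 2 of the 17 rose against PBS in WT pristane, beside 5.18% of all genes, and 1 in the libraries labelled Irf8KO, beside 3.81%. Tmem173, the adaptor also called Sting, had 6.71 and 4.13 FPKM in libraries labelled Irf8KO, 19.9 and 23.0 FPKM in WT pristane and 17.8 FPKM in WT PBS. Of 9 brakes on the pathway, 0 passed between the pristane groups. In WT pristane against PBS 2 of them rose, Usp18 and Tnfaip3, beside 5.18% of all genes. Of 7 interferon receptor and kinase genes, 0 passed between the pristane groups. Only 1 of the 7, Ifngr2, passed as higher than WT PBS, in both pristane groups. The share of all genes was 5.18% in WT pristane and 3.81% in the libraries labelled Irf8KO. The ligands themselves were hardly detected: of 19 in the table, 18 were listed at 0 in both libraries labelled Irf8KO, 16 in both WT pristane libraries and 18 in WT PBS. Ifnb1 had 0 and 0 FPKM in libraries labelled Irf8KO, 0.479 and 2.14 FPKM in WT pristane and 8.07 FPKM in WT PBS, so its highest value was where Irf7 was lowest. Of 3 ligands tested it was the 1 that passed as lower in the libraries labelled Irf8KO against PBS, beside 4.72% of all genes. No fold can be given against 2 libraries listed at 0.

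**Figure D5:**
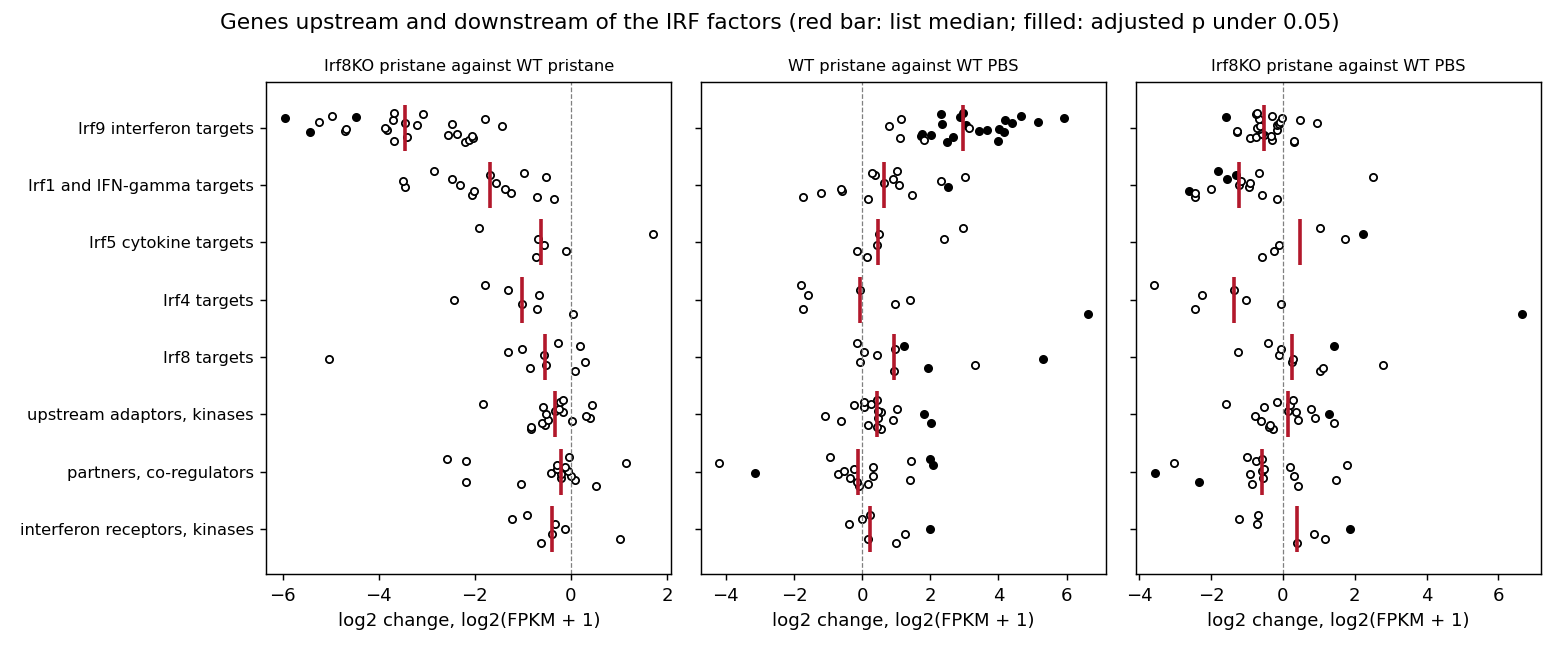
Log2 change on the log2(FPKM + 1) scale of each tested gene in 8 lists of IRF targets, partners and upstream genes, in the 3 comparisons; each point is 1 gene, filled where the adjusted p was under 0.05, and the red bar is the list median. The Irf9 targets have a median of −3.46 in Irf8KO against WT pristane and 2.96 in WT pristane against PBS.

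Cell type markers moved together with several of these results, and their part was not tested. Beside Irf4, the summed level of 11 B cell markers was 201 and 107 FPKM with the Irf8KO label, 41.4 and 9.89 FPKM in WT pristane and 2577 FPKM in WT PBS. Set against PBS, 10 of 11 fell in WT pristane, beside 5.46% of all genes, and 7 in the libraries labelled Irf8KO, beside 4.72%. None of these markers was at 0 throughout a group. Beside Irf7, Irf9, Irf5 and Irf1, the 11 inflammatory monocyte markers summed to 5643 and 4887 FPKM in libraries labelled Irf8KO, 4020 and 7715 FPKM in WT pristane and 1749 FPKM in WT PBS. These sums of the pristane groups overlapped, although 7 of the 11 genes were lower without overlap in the libraries labelled Irf8KO, against 27.1% of all genes. The 2 that were higher without overlap, against 26.1%, made up most of the sums with the Irf8KO label. They were Hp, at 2887 and 1785 FPKM against 1278 and 687 FPKM in WT pristane, and Fn1, at 2335 and 2859 against 1562 and 926 FPKM. The 12 large peritoneal macrophage markers summed to 1656 and 2842, 145 and 229, and 2595 FPKM in the same order, and 11 were higher without overlap in the libraries labelled Irf8KO, set against WT pristane, beside 26.1% of all genes. The 11 neutrophil markers summed to 49235 and 25194, 17146 and 15861, and 163 FPKM, with Il1r2, Stfa2l1 and Camp at 0 after PBS. The 9 natural killer cell markers summed to 84.4 and 37.4 FPKM in libraries labelled Irf8KO, 209 and 164 FPKM in WT pristane and 59.2 FPKM in WT PBS, with Klre1 at 0 after PBS. The sums of the libraries labelled Irf8KO lay on both sides of PBS. Nkg7 made up 53.0 FPKM of the PBS sum and had 48.4 and 11.5 FPKM in libraries labelled Irf8KO. Against PBS, 6 of the 9 genes were higher without overlap in these libraries, beside 40.7% of all genes, and 2 were lower, beside 46%. Set against WT pristane, all 9 were lower without overlap in the libraries labelled Irf8KO, against 27.1% of all genes. All 9 were higher without overlap in WT pristane set against PBS, against 37.3%. Of the T cell markers 9 of 10, and of the conventional dendritic cell markers 8 of 11, were lower without overlap in the libraries labelled Irf8KO, against 27.1% of all genes. T cell markers summed to 56.1 and 42.7, 131 and 87.8, and 379 FPKM in the order Irf8KO pristane, WT pristane and WT PBS, with Trat1 at 0 in both libraries labelled Irf8KO, and those of conventional dendritic cells summed to 62.9 and 43.2, 94.8 and 58.8, and 177 FPKM. Plasmacytoid dendritic cells are rich in Irf7 and Irf8, and their 10 markers summed to 61.2 and 23.8 FPKM in libraries labelled Irf8KO, 37.9 and 17.2 FPKM in WT pristane and 652 FPKM in WT PBS, with Klk1 at 0 in every library and Cox6a2 at 0 in WT. The PBS sum was mostly Ly6d, at 569 FPKM, and Spib, at 48.0 FPKM, which B cells also express. Of the 10 markers, 6 were lower without overlap in WT pristane set against PBS, against 44.5% of all genes, and 1 was higher, against 37.3%. The higher one was Siglech, a surface marker of these cells. It had 0.171 and 0.123 FPKM in libraries labelled Irf8KO, 4.12 and 1.35 FPKM in WT pristane and 0.378 FPKM in WT PBS. Set against WT pristane, 4 of the 10 were lower without overlap in the libraries labelled Irf8KO, against 27.1% of all genes, and 0 were higher, against 26.1%.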

How the data were processed

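RNA of peritoneal lavage cells in 5 libraries (Irf8KO pristane 2, WT pristane 2, WT PBS 1) was analysed from 1 deposited table of FPKM values per gene symbol made by the authors. BWA, TopHat2 2.0.10, Cufflinks 2.2.1 and Cuffnorm are named without roles, per the submitters' processing notes, and neither build nor annotation is given in the sources used here. Nor is it given whether libraries were scaled to each other, so differences between libraries carry the authors' scaling. The table holds no read counts. Depth was estimated from low FPKM steps, where 62.6% to 81.5% of products of value and length lay within 0.15 of 1 or 2 fragments, so no interval was drawn from it.

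The 11117 genes that reached 1 FPKM in 1 or more libraries were tested with limma 3.58.1 (trend, R 4.3.3) on log2(FPKM + 1), with 3 group means over all 5 libraries, 2 residual and 1.99 prior degrees of freedom. P-values were 2-sided and adjusted by Benjamini-Hochberg over all genes tested; fold changes understate the change of low genes. The fit was checked on simulated data. All 8 members were named, with 3 nearest genes each and, per list, up to 3 genes past the threshold with the smallest p and the 2 with the highest level. Stat2, Batf3, Tmem173 and Siglech, where outside this rule, were named after their values were seen, as were Xist, Eif2s3y and Tnpo3. Some genes are not reported here. The members and lists were chosen with earlier results of these data known. Sequences came from RefSeq. In the table, 27 symbols had been turned into dates and were not named.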

Additional observations from a re-analysis of the deposited data

How the results depend on the processing

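Between libraries labelled Irf8KO and WT after pristane, 0 members and 3 genes passed. The counts were 0 members and 0 genes with a pseudocount of 0.1 or with no filter, 2 members (Irf7 and Irf9) and 242 genes with a mean of at least 5 FPKM, and 1 member (Irf7) and 40 genes without the trend. With genes filtered in the pristane libraries, added after seeing the data, they were 3 members with 431 genes in those 4 libraries alone and 3 members with 437 genes in all 5. With the replicate block they were 0 members and 0 genes, and Irf7 had an adjusted p of 0.132 in limma. The labels do not say whether libraries with the same replicate number belong together. The replicate 1 minus replicate 2 differences of the 2 genotypes had r = 0.0448 over 11117 genes, which cannot settle it. Over 13 alternatives the adjusted p of Irf7 ran from 0.00202 to 0.352. In WT pristane against PBS, 1 member passed with a mean of at least 5 FPKM, which removed Irf4. In Irf8KO pristane against PBS, 0 passed with that filter or with a pseudocount of 0.1, and 623 genes passed without the trend. Leaving out each pristane library gave 0 to 0 members and 0 to 0 genes in each of the 3 comparisons, with 1 residual degree of freedom left. Changes near 0 reversed: Irf1 in Irf8KO pristane against PBS to −0.13 with upper quartile scaling and, with libraries left out, between −0.44 and 0.46, Irf2 in Irf8KO against WT pristane between −0.34 and 0.029, Irf3 between −0.13 and 0.53, and Irf3 in WT pristane against PBS between −0.37 and 0.28. That scaling moved the median of all genes by −0.13 in WT pristane against PBS and by −0.12 in Irf8KO pristane against PBS. The causes were not tested beyond the smaller sets of genes or libraries. Irf4 in all 4 pristane libraries, Irf3 in every library and Irf7 outside WT pristane rest on few fragments.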

Other observations

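The core of the interferon-stimulated response element was found before the start of 8 of 17 Irf9 targets with a RefSeq window (47.1%) and of 6 of 12 Irf1 and interferon gamma targets (50%), beside 3.46% of all genes. In the first list were Ifit1, Isg15 and Rsad2, and in the second list Gbp2, Gbp5 and Irgm1. Of 18 interferon ligand genes, which were mostly listed at 0 here, 11 held it. Of the 8 IRF genes only Irf2, whose level varied 1.75-fold, held it in this window, and Irf7, which varied 73.6-fold, did not.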
